A study of Mus musculus with 6 samples.

Results

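The heat shock protein and chaperonin genes of CD4+ CD8+ double-positive (DP) thymocytes were examined in RNA-seq of mice lacking Paxbp1 in T cells. Genes were taken by symbol: the HSP70 and HSP110 genes (Hspa without Hspa5, Hsph), the HSP90 genes, the small heat shock proteins (Hspb), HSP60 and HSP10 (Hspd, Hspe), the cytosolic chaperonin TRiC (Tcp1, Cct2 to Cct8), the J proteins (Dnaj), Bag1 to Bag6, the adaptors St13 and Stip1, and the heat shock factors Hsf1 and Hsf2. This gave 92 of the 22322 genes in the table. Of these, 87 had a count in some library, 76 passed the filter on low counts and were tested, and 16 fell below it. DP thymocytes were sorted by flow cytometry from untreated control mice, labelled WT (Paxbp1 fl/fl), and from Paxbp1 cKO mice, labelled Paxbp1 fl/fl Lckcre, with 3 libraries in each group. Both groups carried the floxed alleles, and only the cKO mice carried the Lck-cre transgene, which the proximal Lck promoter drives in developing T cells, so the groups also differ by the transgene itself. The mice were on the C57BL/6 background, were 4 to 7 weeks old and of both sexes, and the controls were littermates. Nothing in the labels says that libraries came from separate animals, so the p-values measure the spread between these libraries.

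Chaperones keep proteins from aggregating and help them to fold. HSP70 binds exposed hydrophobic stretches in cycles of ATP hydrolysis: J proteins deliver clients and start hydrolysis, HSP110 and BAG proteins release the nucleotide, and adaptors pass clients to HSP90, which matures kinases such as Lck. TRiC folds actin and tubulin in the cytosol, HSP60 and HSP10 form the folding chamber of the mitochondrial matrix, and heat shock factor 1 raises the inducible members by binding repeats of GAA and TTC when unfolded proteins accumulate.

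Libraries held 18963775 to 26252248 counts, and 1 count was worth 0.0381 to 0.0527 CPM, the unit of counts scaled to library size. The transcripts of Cd4 and Cd8a, which define DP cells, stood at 256, 292 and 251 CPM and 1548, 2141 and 1773 CPM in control 1, 2 and 3, and at 184, 225 and 162 CPM and 1376, 1612 and 1448 CPM in cKO 1, 2 and 3. The targeted gene Paxbp1 was measured at 40.1, 16.3 and 15.5 CPM in the controls and 38.8, 47.1 and 49.6 CPM in cKO (log2 fold change 0.92 ± 0.33 SE, edgeR adjusted p = 0.0977). It was thus not lower in the libraries labelled cKO, and control 1 lay within their range. The flox removes 1 exon, so counts over the whole gene do not check the deletion. The paper checked it by other assays. It reports that Paxbp1 RNA was reduced by qPCR in double-negative (CD4- CD8-) thymocytes of cKO mice. It describes the deletion as complete by the immature single-positive stage, which precedes DP cells. Its western blot of sorted double-negative and DP thymocytes showed efficient loss of the protein. Control 1 stood apart from the other controls in this gene, and not only there. Across genes, the chi-square of the counts per degree of freedom was 57.0 and 68.3 between control 1 and controls 2 and 3. Between controls 2 and 3 it was 19.8. The main counts are therefore also given without control 1.

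Some heat shock protein and chaperonin genes, led by Hspa8, Hspd1, Hspa9 and Hsph1, were higher in cKO DP thymocytes, and 58 of the 76 tested were not called. In edgeR (quasi-likelihood, with p-values adjusted by Benjamini-Hochberg over all 11488 tested genes), 15 of the 76 tested members were higher in cKO at an adjusted p below 0.05 and 3 were lower. These are 19.7% and 3.95% of the members, while 4.47% of all tested genes were called higher and 5.89% lower. With the study's added requirement of a log2 fold change above 1, only Bag2 was called among the members, where 1.53% of all tested genes were called higher. The 3 cKO libraries all lay above the 3 controls for 27 members (35.5%; 15.7% of all tested genes) and all below for 7 (9.21%; 17.3% of all tested genes). The median log2 fold change was 0.08 over the members and -0.00 over all tested genes, and 33 of the 76 members had a log2 fold change below 0.

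By class, 11 of the 15 increases lay in the HSP70, HSP110, HSP90, HSP60, HSP10 and TRiC genes, which were pooled after the values were seen. Of the 23 tested HSP70, HSP110, HSP90, HSP60, HSP10 and TRiC genes, 11 were called higher, 12 were not called and 0 were called lower (0 also at an unadjusted p below 0.05 in edgeR, and by DESeq2 and limma-voom). Over all tested genes 4.47% were called higher and 5.89% lower. All cKO libraries lay above all controls for 19 of the 23 (15.7% of all tested genes), and the median log2 fold change was 0.52. Of the 41 tested J proteins, 2 were called higher and 3 lower, near the shares of all tested genes (4.47% and 5.89%), and the median was -0.10. Abundant members held most of the increases. Among the 32 members with a mean of at least 100 CPM, a level chosen after the values were seen, 12 were called higher and 1 lower, where 6.29% of the 2590 genes at that level were called higher and 9.96% lower. All members together took 1.22% to 1.32% of the counts of the control libraries and 1.64% to 1.77% of the counts of the cKO libraries. In bulk samples, a change in the share of cells that carry a transcript and a change in its amount per cell cannot be told apart.

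**Figure D1:**
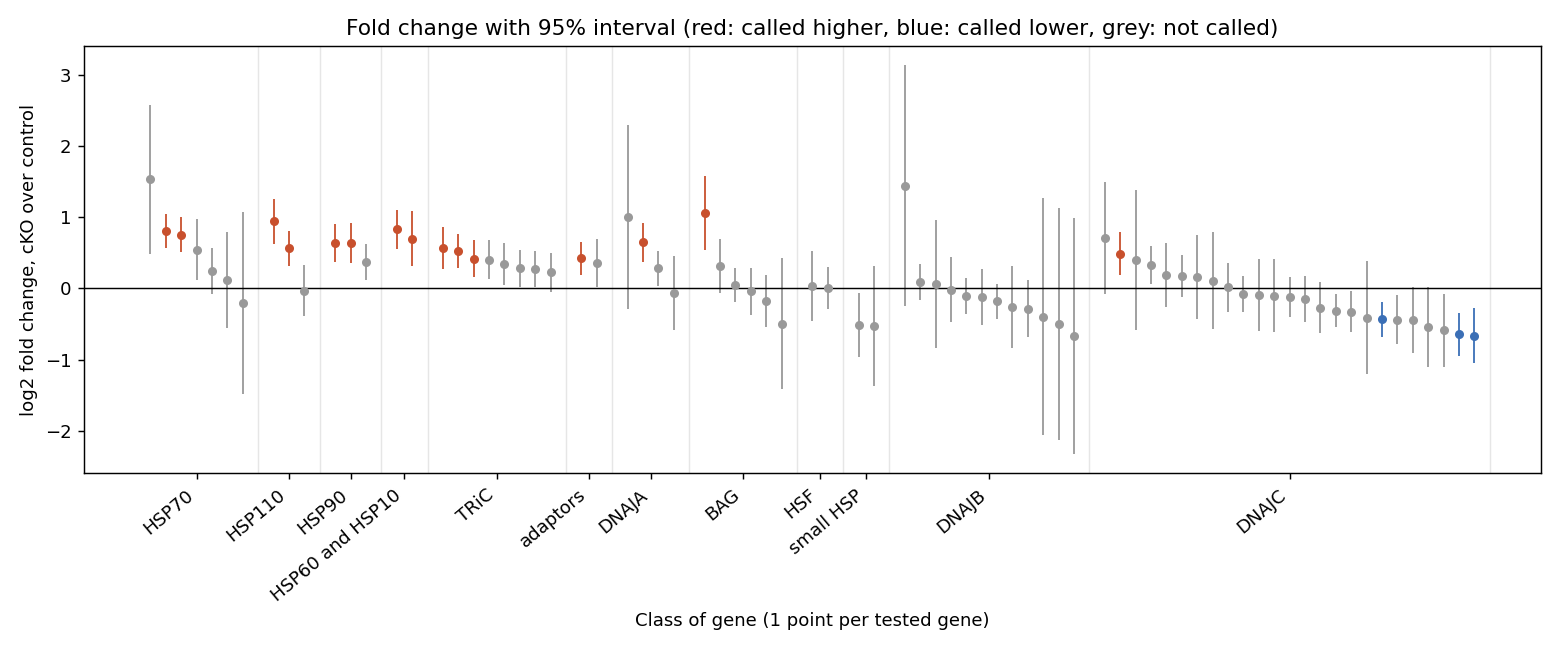
Log2 fold change (cKO over control) of the 76 tested members by class, 1 point per gene with its 95% interval; red points were called higher, blue points lower and grey points not called. The 11 called points of the HSP70, HSP110, HSP90, HSP60, HSP10 and TRiC classes all lie above 0, and the 25 DNAJC genes include 1 point called higher and 3 called lower.

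The number of calls depended on single libraries. It ranged from 4 to 16 members called higher when 1 library was left out, and from 0 to 5 called lower. Without control 1, 16 members were higher and 5 lower, while over all 11873 genes tested in that fit the calls rose to 1000 higher and 1030 lower. Without cKO 3, 4 members were higher and 0 lower, while over all genes the calls fell from 514 to 42 higher and from 677 to 78 lower. Without control 2, and likewise without cKO 1, 6 members were higher and 0 lower. Over all genes the calls were then 178 higher and 235 lower without control 2, and 179 and 286 without cKO 1. Hspa8, Hspd1, Hspa9 and Hsph1 kept their call under each of the 13 alternatives that were run, and Hsp90ab1 and Dnaja1 lost it only without cKO 3, at edgeR adjusted p-values of 0.0732 and 0.0750. Each of the other 12 called members lost its call in 3 to 5 of the fits without 1 library, always including those without control 2, without cKO 1 and without cKO 3.

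**Figure D2:**
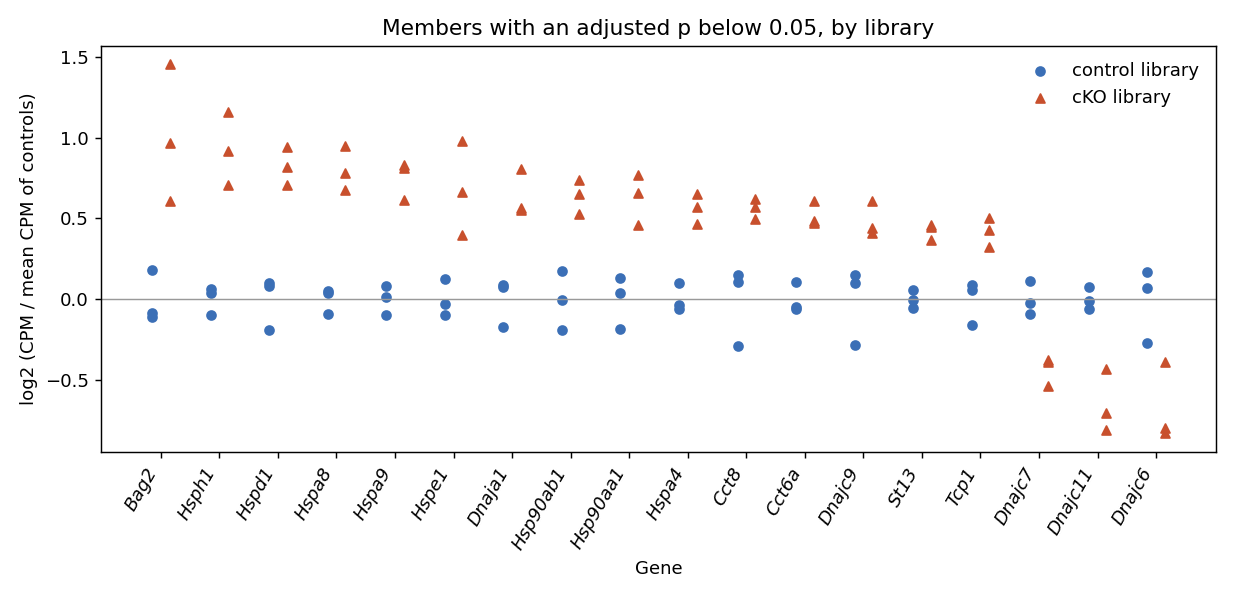
Log2 ratio of each library's CPM to the mean CPM of the controls for the 18 members with an adjusted p below 0.05; circles are control libraries and triangles cKO libraries. The triangles lie above all circles for the 15 members from Bag2 to Tcp1 and below them for Dnajc7, Dnajc11 and Dnajc6.

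Neither heat shock factor passed the test in edgeR, DESeq2 or limma-voom, and 0 of the 2 had an unadjusted edgeR p below 0.05. Hsf1, the main activator of the response, stood at 79.4, 64.2 and 71.1 CPM in the controls and 78.4, 68.1 and 69.4 CPM in cKO. Its log2 fold change was 0.01 with a 95% interval of -0.29 to 0.30 (edgeR adjusted p = 0.977). Hsf2, a second factor that can pair with it, stood at 19.9, 13.6 and 14.9 CPM and 19.4, 13.9 and 16.1 CPM (log2 fold change 0.03, interval -0.46 to 0.52, edgeR adjusted p = 0.950). The groups overlapped for both genes. Heat shock factor 1 is controlled largely at the protein level, and its activity was not measured.

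RefSeq promoter windows, from 250 bases before to 50 bases after a start, were found for 73 of the 92 members and for 10 of the 15 called higher. They were searched on both strands for the palindromes GAANNTTC and TTCNNGAA, and for the overlap of both, in which 3 units of GAA or TTC alternate at equal spacing. GAANNTTC was present in 20.4% of the 93 windows of members and in 7.86% of all 32851 windows, and TTCNNGAA in 10.8% and 8.52%. The 3-unit form was present in 6 member windows of 4 genes (6.45%; 0.603% of all windows), namely Hspe1, Hsph1, Hspd1 and Dnajb6. Hspd1 held it in an alternate window that covers nearly the same bases as the Hspe1 window, so both matches are 1 element. The first 3 genes were called higher and Dnajb6 was not (230.2, 193 and 195 CPM in the controls and 184, 191 and 201 CPM in cKO). A match describes these letters and is not a measured binding site.

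The 250 bases before the RefSeq start are shown for the genes with a 3-unit form in the window nearest their start, and for Hspa1a, the classical inducible gene, as the single-palindrome case; capitals mark the letters of the palindromes. The coordinates are on GRCm38.p6, and each sequence is written 5′ to 3′ on the strand of its gene. They are chr1:55087898-55088147 (+) for Hspe1, chr5:149636337-149636586 (-) for Hsph1, chr5:29735648-29735897 (+) for Dnajb6 and chr17:34972157-34972406 (-) for Hspa1a.
Hspe1: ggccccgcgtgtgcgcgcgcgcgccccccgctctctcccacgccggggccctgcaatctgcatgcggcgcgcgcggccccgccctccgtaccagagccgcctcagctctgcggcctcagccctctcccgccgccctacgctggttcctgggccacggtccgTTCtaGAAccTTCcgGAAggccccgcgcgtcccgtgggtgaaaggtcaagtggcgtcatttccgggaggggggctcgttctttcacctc
Hsph1: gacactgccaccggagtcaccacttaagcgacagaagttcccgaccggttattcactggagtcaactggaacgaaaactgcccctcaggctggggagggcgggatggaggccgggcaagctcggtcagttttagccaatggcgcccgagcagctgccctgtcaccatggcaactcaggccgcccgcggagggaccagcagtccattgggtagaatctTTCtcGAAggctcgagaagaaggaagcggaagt
Dnajb6: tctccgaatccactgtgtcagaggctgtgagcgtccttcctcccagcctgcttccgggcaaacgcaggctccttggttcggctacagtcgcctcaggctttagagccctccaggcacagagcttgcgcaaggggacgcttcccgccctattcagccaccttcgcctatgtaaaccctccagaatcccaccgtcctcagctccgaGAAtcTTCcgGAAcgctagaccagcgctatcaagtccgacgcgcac
Hspa1a: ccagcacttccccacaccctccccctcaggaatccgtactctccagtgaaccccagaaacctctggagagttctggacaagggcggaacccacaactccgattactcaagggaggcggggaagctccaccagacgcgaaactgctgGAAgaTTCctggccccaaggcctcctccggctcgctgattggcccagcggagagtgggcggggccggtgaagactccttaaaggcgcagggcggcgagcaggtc
In Hspe1 the palindromes began 89, 84 and 79 bases before the start and ran into each other as 4 alternating units. In Dnajb6 they began 46 and 41 bases before the start. Hsph1 held 1 palindrome 33 bases before the start, and its 3-unit form lay within the transcript, 36 to 48 bases after the start. It is shown with its flanks as the 20 bases at chr5:149636287-149636306 (-), where capitals again mark the palindromes.
Hsph1 site: tgcagaTTCtgGAAagTTCt
Hspa1a held a single palindrome that began 104 bases before its start.

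Among the HSP70 genes, the rise lay in Hspa8 and Hspa9. Hspa8 (chr9:40800984-40810087, plus strand, GRCm38) encodes HSC70, the constitutive cytosolic HSP70, and was the most abundant member. It was measured at 1868, 2039 and 2058 CPM in control 1, 2 and 3 and at 3171, 3420.1 and 3846 CPM in cKO 1, 2 and 3. Every cKO library exceeded every control, and the log2 fold change was 0.81 ± 0.11 (SE), or 1.75-fold (edgeR adjusted p = 0.00408). Hspa9, the HSP70 of the mitochondrial matrix, rose from 207, 192 and 218 CPM to 366, 315 and 361 CPM (log2 fold change 0.76 ± 0.11 SE, edgeR adjusted p = 0.00611). Hspa8 made up 82.8% to 86.7% of the summed HSP70 CPM in each library, and that sum was 1.70 times higher in cKO than in control as a ratio of means.

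The inducible HSP70 gene Hspa1a was a low transcript in both groups. It had 49, 22, 46, 71, 105 and 154 counts in control 1, 2 and 3 and cKO 1, 2 and 3, or 2.54, 1.13 and 1.79 CPM and 3.24, 5.47 and 7.11 CPM. The cKO libraries lay above the controls, but the increase of 1.53 on the log2 scale had an interval of 0.49 to 2.58 and an edgeR adjusted p of 0.0635. DESeq2 gave an adjusted p of 0.0183, edgeR without a filter 0.0496, and edgeR without control 1 0.0384. Its near copy Hspa1b had at most 15 counts in any library and was not tested, and the copies share most of their sequence, so their split is uncertain. Summed, they gave an estimate of 1.45 on the log2 scale (edgeR adjusted p = 0.0515). Hspa13 and Hspa14 had log2 fold changes of 0.54 and 0.24 and were not called, and Hspa2 and Hspa1l, known from the testis, had 0.11 and -0.21.

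HSP110 proteins are large relatives of HSP70 that exchange its nucleotide and help it to dissolve aggregates. Hsph1 (chr5:149614287-149636376, minus strand, GRCm38) had 46.3, 51.8 and 50.9 CPM in the controls and 93.9, 81.2 and 111 CPM in cKO. The groups were far apart, with a log2 fold change of 0.94 ± 0.14 (SE, edgeR adjusted p = 0.00659), the second largest increase among the called members after Bag2. Hspa4 rose from 162, 147 and 145 CPM to 225, 209 and 238 CPM (log2 fold change 0.57, edgeR adjusted p = 0.0135). The third gene, Hspa4l, had a log2 fold change of -0.03 (interval -0.38 to 0.32) and its groups overlapped.

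The calls among the J proteins, 2 higher and 3 lower of 41, were near the shares over all genes. Dnaja1, a cytosolic partner of HSC70, was the only called gene of the 4 in the DNAJA class. It stood at 342, 406 and 409.9 CPM in the controls and 567, 571 and 675 CPM in cKO, with no overlap (log2 fold change 0.65, edgeR adjusted p = 0.0116). Dnaja2 had an estimate of 0.28 (edgeR adjusted p = 0.136), Dnaja3, which acts in mitochondria, -0.07, and Dnaja4 1.003 on 19 to 91 counts.

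Of the 12 tested DNAJB genes, 0 were called in either direction by edgeR, DESeq2 or limma-voom, and 0 had an unadjusted edgeR p below 0.05. Dnajb1, the inducible HSP40 and the most abundant of them, had 656, 571 and 682 CPM in the controls and 589.9, 540.4 and 556 CPM in cKO. The groups overlapped and the point estimate was below 0 (log2 fold change -0.18, interval -0.42 to 0.07, edgeR adjusted p = 0.327). Dnajb13, a gene of the sperm flagellum, had the largest estimate of the class, 1.44, on 5 to 43 counts (edgeR adjusted p = 0.250), and Dnajb7 had -0.67 on 6 to 37 counts.

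Of the 25 tested DNAJC genes, 1 was called higher and 3 lower, where 4.47% and 5.89% of all tested genes were. Dnajc9, a J protein that is also a chaperone for histones H3 and H4, stood at 217, 283 and 294 CPM in the controls and 352, 359.9 and 403 CPM in cKO (log2 fold change 0.49, edgeR adjusted p = 0.0466). Dnajc11, a protein of the mitochondrial outer membrane that contacts the cristae-organizing complex, fell from 86.0, 89.1 and 94.4 CPM to 51.2, 66.3 and 55.0 CPM (log2 fold change -0.64, edgeR adjusted p = 0.0177). Dnajc6, the auxilin that strips clathrin from vesicles, fell from 69.6, 64.8 and 51.2 CPM to 34.7, 47.1 and 35.5 CPM (log2 fold change -0.66, edgeR adjusted p = 0.0400). The groups did not overlap for these 3 genes. Dnajc7, which binds both HSP70 and HSP90 through its TPR repeats, had 212, 233 and 202 CPM in the controls and 148, 166 and 164 CPM in cKO, again with no overlap (log2 fold change -0.43, edgeR adjusted p = 0.0370). Among the 21 that were not called, the groups were also apart on the lower side for Dnajc3, Dnajc14 and Dnajc21 (log2 fold changes -0.31, -0.44 and -0.59). On the higher side they were apart for Dnajc2 (0.33). With the called genes, 6 of the 25 were apart on the lower side and 2 on the higher side. Over all tested genes these shares were 17.3% and 15.7%. Dnajc16, among the 5 largest decreases, had -0.54 (edgeR adjusted p = 0.189).

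Bag2 had the largest called increase of any member. It blocks the ubiquitin ligase CHIP and exchanges nucleotide on HSP70, and was a low transcript at 15.3, 12.5 and 12.7 CPM in the controls and 26.5, 20.6 and 37.1 CPM in cKO. The cKO libraries were all higher but spread widely, and the log2 fold change was 1.05 ± 0.23 (SE, edgeR adjusted p = 0.0212). Bag1, at 135, 138 and 152 CPM and 148, 150.0 and 141 CPM, had a log2 fold change of 0.05 with an interval of -0.20 to 0.29. Bag3, the stress-inducible member that guides clients to autophagy, had -0.50 on 45 to 151 counts (edgeR adjusted p = 0.476), and Bag4, Bag5 and Bag6 had 0.32, -0.18 and -0.04. The groups overlapped for all of these except Bag2.

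Of the adaptors, St13 (Hip), which holds HSP70 in its client-bound state, rose from 150.4, 145 and 157 CPM to 205, 195 and 208 CPM (log2 fold change 0.42, edgeR adjusted p = 0.0317). Stip1 (Hop), which bridges HSP70 and HSP90, stood at 238, 333 and 357 CPM and 392, 374 and 426 CPM. Its groups did not overlap, but control 1 lay well below the other controls and the gene did not pass (log2 fold change 0.36, edgeR adjusted p = 0.154).

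Both cytosolic HSP90 genes rose. Hsp90ab1, the constitutive form, had 944, 1072 and 1213 CPM in the controls and 1693, 1549 and 1796 CPM in cKO. Hsp90aa1, the inducible form, had 566, 662 and 706 CPM and 1016, 886 and 1099 CPM. Every cKO library exceeded every control for both, and the log2 fold changes were 0.64 and 0.63 (edgeR adjusted p = 0.0113 and 0.0145). Hsp90b1 (GRP94), their relative in the endoplasmic reticulum, had 267, 319 and 301 CPM and 354, 399 and 393 CPM, apart but not called (log2 fold change 0.37, edgeR adjusted p = 0.0638).

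The mitochondrial chaperonin rose with Hspa9. Hspd1 (HSP60) stood at 172, 210.2 and 208 CPM in the controls and 379, 322 and 347 CPM in cKO, with a log2 fold change of 0.83 ± 0.12 (SE, edgeR adjusted p = 0.00598). Hspe1 (HSP10), its lid, stood at 29.3, 30.7 and 34.2 CPM and 62.1, 41.3 and 49.7 CPM (log2 fold change 0.70 ± 0.17 SE, edgeR adjusted p = 0.0330). The groups were apart for both. The genes lie head to head on chromosome 1, and in GENCODE on GRCm38 their starts (55088243 for Hspd1, 55088132 for Hspe1) overlap by 112 bases, so without strand a read from this stretch cannot be assigned to one of them. Counted by compartment, with members assigned after the values were seen, 3 of 8 mitochondrial members were higher and 1 was lower (4.47% and 5.89% of all tested genes). Of 11 members of the endoplasmic reticulum 0 were called by edgeR or limma-voom, 3 had an unadjusted edgeR p below 0.05, and DESeq2 called 1 higher and 1 lower. Hspa5, the HSP70 of that compartment, is not a member by the rule used here and was called higher (log2 fold change 0.79).

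TRiC is built of stacked rings, each with 8 different subunits in equal number. For all 8 subunit genes the cKO libraries lay above the controls, as they did for 15.7% of all tested genes. The log2 fold changes ran from 0.23 to 0.57, with a median of 0.37. Of the 8 subunit genes 3 passed the test, where 4.47% of all tested genes were called higher. Cct8 had 371, 503 and 489 CPM in the controls and 642, 676 and 699 CPM in cKO (log2 fold change 0.57, edgeR adjusted p = 0.0261). Cct6a had 275, 272 and 307 CPM and 398, 394 and 434 CPM (log2 fold change 0.52, edgeR adjusted p = 0.0165), and Tcp1 had 267, 311 and 318 CPM and 373, 424 and 401 CPM (log2 fold change 0.42, edgeR adjusted p = 0.0446). The 5 others, Cct3, Cct5, Cct4, Cct2 and Cct7, had log2 fold changes of 0.40, 0.35, 0.28, 0.27 and 0.23 and edgeR adjusted p-values of 0.0638, 0.120, 0.152, 0.158 and 0.264. Control 1 was the lowest control for 6 subunits and control 2 for 2. The summed CPM of the subunits was 2389.8, 2811 and 2986 in control 1, 2 and 3 and 3444, 3499.7 and 3758 in cKO 1, 2 and 3. No subunit was called without control 2, without cKO 1 or without cKO 3, and 1 was called without cKO 2. The testis paralogue Cct6b and Cct8l1 had at most 13 and 10 counts and were not tested.

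Per length, in the authors' FPKM, the subunits were not at equal levels. Cct4 had the smallest share of their summed FPKM, 5.90% to 7.98% over the 6 libraries, and was the lowest subunit in each. Cct8, Cct7 and Cct5 had the largest shares, 16.0% to 20.6%, 16.8% to 19.5% and 16.2% to 18.1%, and their order differed between libraries. The share of Cct7 was lower in every cKO library (17.7%, 16.8% and 17.1%) than in any control (18.5%, 19.3% and 19.5%). The share of Cct8 overlapped between the groups. FPKM depends on the length assigned to each gene, so the order of subunits is less firm than the comparison of 1 subunit between groups.

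**Figure D3:**
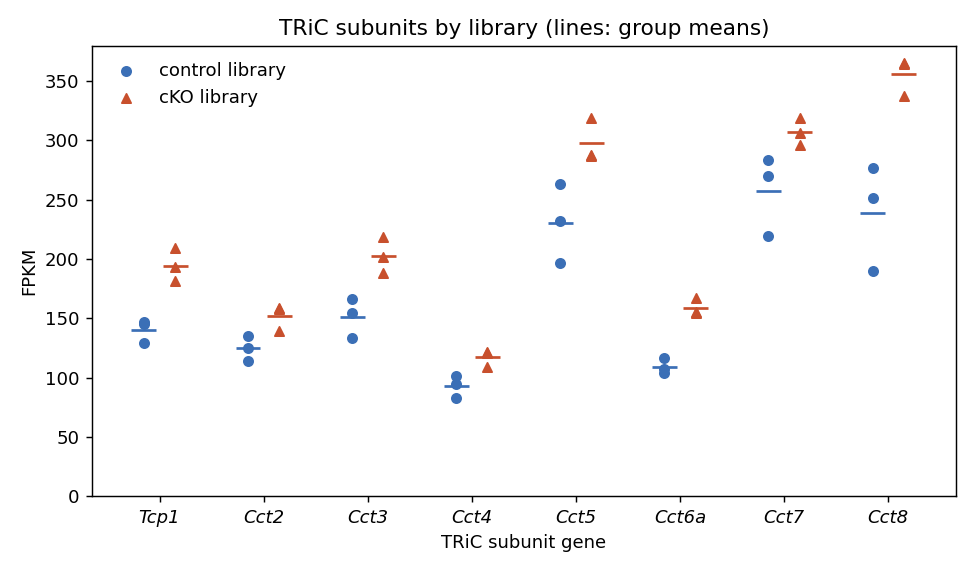
FPKM of the 8 TRiC subunit genes in each library, with circles for controls, triangles for cKO and lines for group means. For each subunit the triangles lie above the circles, and Cct4 is the lowest and Cct8 the highest subunit in cKO.

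Small heat shock proteins were almost absent. Hspb1 (HSP27), the best known of them, had 2 counts in control 2 and 0 in the other 5 libraries, under the limit of 3 counts (0.114 to 0.158 CPM). Of the 8 Hspb genes only Hspb11 and Hspb6 were tested. Hspb11, an intraflagellar transport protein in spite of its name, had 19.35, 29.1 and 30.3 CPM in the controls and 19.26, 17.3 and 18.7 CPM in cKO, narrowly apart but not called (log2 fold change -0.51, edgeR adjusted p = 0.134), and Hspb6 had -0.52 (edgeR adjusted p = 0.409). Dnajc5b, Dnajc22, Dnajc5g and Hspb3 had no count in any library, and Hspb2, Hspb7, Hspb8, Hspb9, Dnajb8, Hspa12a and Hspa12b were below the filter, with at most 29 counts in 1 library.

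On the FPKM scale the pool was led by the same genes in both groups. Hspa8 had a mean of 842 FPKM in the controls and 1502 FPKM in cKO, followed by Hsp90ab1 (425 and 675 FPKM) and Hsp90aa1 (407 and 625 FPKM). Cct8 and Cct7 were next by the mean of both groups. In cKO, Dnaja1 ranked 5, from 8 in control, and Dnajb1 ranked 12, from 7. The ranges of Hsp90ab1 and Hsp90aa1 were close, with a ratio of 1.01 to 1.07 in the controls and 1.05 to 1.12 in cKO.

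**Figure D4:**
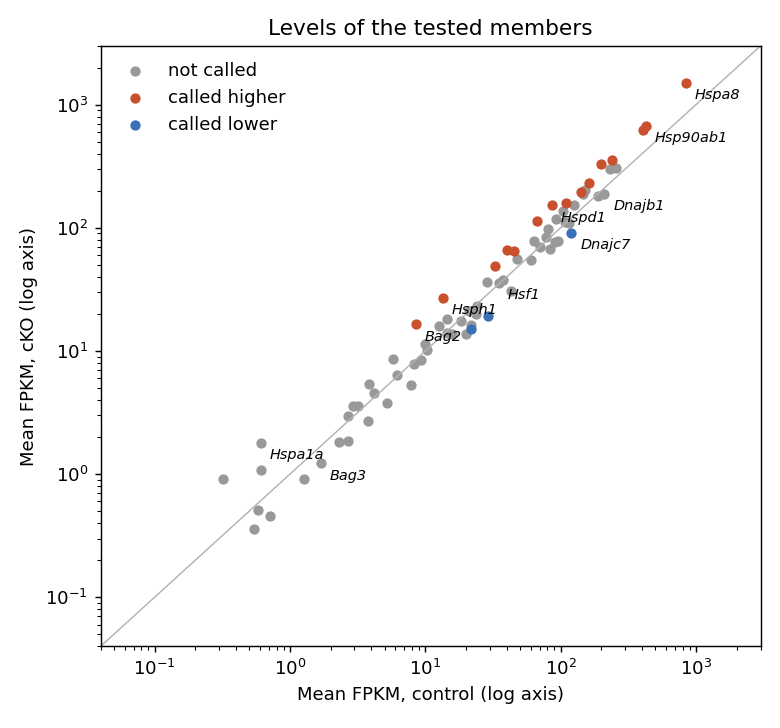
Mean FPKM of the 76 tested members in control (x axis) and cKO (y axis), both on log axes, with the line of equality; red was called higher, blue called lower. Hspa8 is the highest point in both groups and lies above the line, and Dnajb1 and Hsf1 lie near it.

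Some ratios between a chaperone and its partner did not overlap between the groups. The ratio of Hspa8 to Dnajb1 FPKM was 3.64, 4.57 and 3.86 in control 1, 2 and 3 and 6.96, 8.11 and 8.85 in cKO 1, 2 and 3. The ratio of Hspa8 to Bag1 was 7.89 ± 0.330 (SD, n = 3) in control and 13.4 ± 1.66 in cKO. These groups did not overlap, nor did those of Hsp90ab1 to Stip1 (2.96 ± 0.338 and 3.56 ± 0.0988). The ratios of Hspa8 to Dnajb1 and to Bag1 restate the rise of Hspa8, since the groups overlapped for Dnajb1 and Bag1 themselves. The ratios of Hspa8 to Dnaja1 (4.28 ± 0.241 and 4.58 ± 0.125), Hspa8 to Hsph1 (62.8 ± 2.22 and 56.6 ± 7.94) and Hspd1 to Hspe1 (2.15 ± 0.160 and 2.34 ± 0.298) overlapped between the groups. The ratios were not tested, since 3 libraries against 3 cannot reach a two-sided exact permutation p below 0.10.

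**Figure D5:**
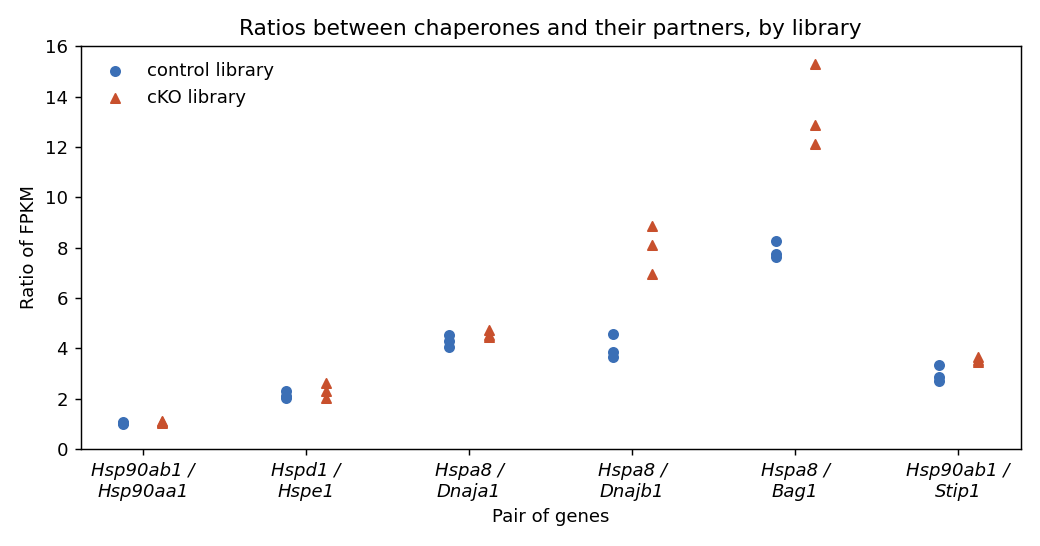
Ratio of FPKM between 6 pairs of members in each library, with circles for controls and triangles for cKO. The groups are apart for Hspa8 over Dnajb1, Hspa8 over Bag1 and Hsp90ab1 over Stip1, and overlap for the other 3 pairs.

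Some members share sequence with other genes, which can move reads between them. Of the 50-base stretches in the GENCODE transcript of Hspa8, 73.2% also occur in transcripts of another gene, mostly Gm15459, as do 58.5% for Hsp90aa1, 44.8% for Hspd1, 36.1% for Hspe1, 18.7% for Dnaja1 and 60.3% for Hspa1a, in the last case mostly with Hspa1b. For Hspa8, Hsp90aa1, Hspd1 and Dnaja1 the gene that shares most is not among the 22322 genes with deposited counts, while for Hspe1 and Hspa1a it is. Hsph1, Hspa4, Cct6a and Cct8 share none, and Hspa9 and Hsp90ab1 share 4.10% and 4.49%.

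Among genes that work with the members, the numbers of calls were near the shares over all tested genes. Of 76 tested genes in the lists of cochaperones and folding factors, 5 were called higher and 4 lower (4.47% and 5.89% of all tested genes), and the median log2 fold change was 0.06. The cKO libraries all lay above the controls for 22 of the 76 and all below for 11 (15.7% and 17.3% of all tested genes). For the 76 tested members these numbers were 27 and 7. Among 22 HSP90 cochaperones, Ptges3 (p23) rose by 0.80 on the log2 scale and Ahsa2 by 0.61, while Fkbp8, Pih1d1 and Tomm34 fell by 0.68, 0.92 and 0.50 (edgeR adjusted p from 0.00669 to 0.0260). Hspa5 (BiP), the HSP70 of the endoplasmic reticulum, was the called gene of 8 exchange factors and partners of HSP70. It had 914, 598 and 802 CPM in the controls and 1401, 1077 and 1512 CPM in cKO (log2 fold change 0.79, edgeR adjusted p = 0.0205), and Calr, a lectin chaperone, was the other called gene of 12 folding enzymes of that compartment (0.49, edgeR adjusted p = 0.0466). The prefoldin subunit Vbp1 rose by 0.50 (1 of 12 tested prefoldin and TRiC partners), and the tubulin cofactor Tbcd fell by 0.66 (1 of 7). Of 10 mitochondrial proteases and chaperones, edgeR and limma-voom called 0 and DESeq2 called 2 lower (3 at an unadjusted edgeR p below 0.05, log2 fold changes from -0.50 to 0.22). Of 7 other tested genes of the heat shock response, such as Ubb and Ier5, edgeR and limma-voom called 0 and DESeq2 called 1 higher (2 at an unadjusted edgeR p below 0.05, log2 fold changes from -0.12 to 0.57).

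Other sets of genes also differed between control and cKO, and their part in the result was not tested. All 7 DNA replication genes (Mcm2 to Mcm7 and Pcna) were called higher, and their summed level was 2595 to 3784 CPM in the controls and 5090 to 6687 CPM in cKO. Of 14 immediate early genes, which respond within minutes to stimulation or stress, 7 were called higher by edgeR and 4 by limma-voom. Jund and Egr2 had log2 fold changes below 0 (-0.85 and -0.67) and were not called. The 14 genes summed to 3120 to 3723 CPM in the controls and 4030 to 8589 CPM in cKO. Over all tested genes edgeR called 4.47% higher and 5.89% lower. The 11 DP thymocyte markers all had log2 fold changes below 0, of which Rag1, Cd3e and Cd8b1 were called lower, and their sum was 10995 to 12939 CPM in the controls and 8017 to 9506 CPM in cKO.

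Markers of other cells were low but not equal in the groups. The 16 macrophage markers summed to 33.7 to 73.3 CPM in the controls and 92.3 to 135 CPM in cKO, and 4 of the 9 tested (C1qb, C1qc, Cd68 and Adgre1) were called higher. Adgre1 was at 0 in each control and at 2.28, 2.19 and 2.40 CPM in cKO. The 9 markers of NK and innate T cells summed to 37.8 to 84.2 CPM and 141 to 167 CPM, mostly Gzma (called higher), and the 7 erythroid markers to 27.5 to 141 CPM and 1.92 to 48.8 CPM. The 7 B cell markers summed to 41.9 to 46.0 CPM and 26.6 to 31.2 CPM, almost all of it Cd79b (called lower), while Blk, the other tested one, had a log2 fold change of 2.04 at 0.154 to 3.14 CPM and was not called. Dendritic cell markers (19.9 to 30.02 CPM and 7.94 to 34.1 CPM) and thymic epithelial markers (36.6 to 41.2 CPM and 37.6 to 39.6 CPM), like the erythroid ones, had 0 calls by edgeR, DESeq2 or limma-voom and 0 at an unadjusted edgeR p below 0.05, and neutrophil markers reached at most 0.312 CPM in sum, with 4 of 8 at 0 in every library. The part of such cells in the values of the members was not tested.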

How the data were processed

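RNA from sorted DP thymocytes was pre-amplified as cDNA and sequenced on a HiSeq2500. The labels name a SMARTER kit and the study's methods a Discover-sc kit. The submitters' processing notes name fastp 0.18.0, Bowtie2 2.2.8, HISAT2, StringTie and RSEM, with no role for each, while build and annotation were not given in the sources used here. Read counts per gene and library were deposited, not normalized and as whole numbers (rounded estimates if RSEM made them), with FPKM values that the authors scaled by gene length and sequencing depth. The table also holds the authors' mean FPKM per group, log2 fold change, p-value and FDR, which were not used. Per-sample columns left unused numbered 0.

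The analysis used edgeR 4.0.16 under R 4.3.3: filterByExpr (minimum count 10, minimum total 15), TMM normalization, a quasi-likelihood test of genotype without covariates, and p-values adjusted by Benjamini-Hochberg over 11488 of 15349 genes with a count. A gene was called at an adjusted p below 0.05. The common coefficient of variation between libraries was 0.228. CPM values are TMM-normalized. FPKM was used for levels, shares and ratios between genes, which are also set side by side for control and cKO, and no test was run on it. Alternatives were DESeq2 1.42.0, limma 3.58.1 (voom), other scalings and filters, a replicate block, and leaving out each library. The pipeline was tested on simulated data. Replicates were separate libraries: the chi-square of their counts was 19.8 to 68.3 per degree of freedom, where sampling noise gives about 1. The highest values were those of control 1 against control 2 (57.0) and control 3 (68.3). A limit of 3 counts stands for a count of 0 and covers counting error only.

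The members, lists and marker genes were chosen with earlier results of these data known. Genes were named if called, among the 5 largest increases or decreases, among the 5 highest by FPKM, on a list of core members, or called on another list. Other genes named were chosen after their values were seen. Promoter windows are from RefSeq (GRCm38.p6), matched by gene symbol, and positions from GENCODE (GRCm38), matched by gene identifier. Protein sequences were not analysed here, and 1 member is counted in the totals but not reported by name.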

Additional observations from a re-analysis of the deposited data

How the results depend on the processing

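With 1 library left out at a time, members called higher numbered 4 to 16 (15 with all libraries), members called lower 0 to 5 (3), TRiC subunits called higher 0 to 3 (3), DNAJC genes called lower 0 to 4 (3) and genes called on the other folding lists 0 to 10 (9). Each of these fits has the same residual degrees of freedom, fewer than the fit with all libraries. Over all genes they called from 42 higher and 78 lower (without cKO 3) to 1000 higher and 1030 lower (without control 1). Why they differed was not tested. DESeq2, limma-voom, RLE or total-count scaling, no filter and a mean of at least 5 CPM gave 15 to 18 members higher and 3 to 4 lower. Over all genes DESeq2 called 953 higher and 987 lower, where edgeR called 514 and 677. The direction of 2 genes near 0 turned: Hsf1 had a log2 fold change of -5.05e-06 without a filter, and with 1 library left out Hsf1 ranged from -0.065 to 0.087 and Hsf2 from -0.102 to 0.208. No pairing by replicate number was seen across genes: the deviations of same-numbered libraries correlated at 0.05, 0.04 and -0.03. Pairing that touched few genes would not show in these correlations. A fit with a replicate block called 16 members higher and 3 lower, and 10 genes on the other lists. Scaling moved the median log2 fold change of all genes by under 0.02. Low transcripts such as Hspa1a, Bag3 and Dnajb13 are limited by depth.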
